A study of Mus musculus with 10 samples.

Results

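The sarcomere, the contractile unit of the heart muscle cell, is assembled from proteins that exist as fetal and adult or atrial and ventricular isoforms, each encoded by its own gene. The 10 genes described here were chosen by symbol and encode myosin heavy chains (Myh6, Myh7, Myh7b), sarcomeric alpha-actins (Acta1, Actc1), troponin I (Tnni1, Tnni3), troponin T (Tnnt2) and atrial myosin light chains (Myl4, Myl7). All 10 are among the 29564 genes listed in the deposited tables, and 9 of them are among the 13299 genes that were tested. Myl7 did not pass the detection filter and is described without a fitted change.

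In rodent development the ventricle turns from the slow beta heavy chain of Myh7 to the fast alpha heavy chain of Myh6, from the skeletal alpha-actin of Acta1 to the cardiac alpha-actin of Actc1, and from the slow skeletal troponin I of Tnni1 to the cardiac troponin I of Tnni3. Pressure overload is known to raise Myh7 and Acta1 again in the adult rodent ventricle, and these genes are therefore read as markers of a return to the fetal programme. Myl4 and Myl7 encode the essential and the regulatory light chain of atrial myosin, which the developing ventricle also makes to some extent, whereas the adult ventricle makes those of Myl3 and Myl2.

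Left ventricular tissue came from 5 control mice, numbered TT-583 to TT-587, and 5 mice of the HFD+mTAC group, numbered TT-588 to TT-592, all wild-type C57BL6 mice, males of the C57BL/6J substrain in the study's methods. The HFD+mTAC model joins a high-fat diet (HFD, fat as 60% of the kilocalories) with moderate transverse aortic constriction (mTAC), a narrowing of the aorta made at 11 weeks of age that puts a pressure load on the left ventricle, and takes 16 weeks to develop. Control mice were not operated on and ate chow (fat as 10% of the kilocalories), so that diet and constriction cannot be told apart in these data. Both groups are labelled as given vehicle, which the labels describe as 10 mL/kg once a day for 6 to 9 weeks.

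Polyadenylated RNA of each ventricle was sequenced to 34.2 to 53.7 M estimated counts, of which 43.8 to 52.7% lay on mitochondrially encoded genes. The mitochondrial share did not differ detectably between the groups (two-sided exact permutation test, p = 0.246). It was lowest in TT-583, TT-584 and TT-592, and values without these libraries are given where they bear on a result. Each mouse counted as 1 replicate, and no library repeated another (chi-square per degree of freedom at least 12.9 over the 20 pairs within groups). The ventricular markers were abundant. The summed level of 8 genes was between 9939 and 12370 TPM in control mice. In HFD+mTAC mice it was between 8321 and 9479 TPM, so that the groups did not overlap in TPM. Most of the sum was Myl2, at 8293 to 9941 TPM in control and 6934 to 7411 TPM in HFD+mTAC mice. For each of the other markers in the sum the groups overlapped in TPM. Of all single genes tested, 0.692% had groups that did not overlap in TPM. In edgeR's test between the groups, 0 of the 8 markers had an unadjusted p under 0.05. TPM is the level of a transcript corrected for its length and scaled to a common total. The summed level of 7 atrial markers was 84.8 to 144 TPM in control and 51.2 to 133 TPM in HFD+mTAC mice. Most of it was Nppa, a stress gene of the ventricle too, at 46.2 to 140 TPM, while Kcna5 and Kcnj3 lay between 1.18 and 4.48 TPM and Sln, Mybphl, Bmp10 and Dkk3 at no more than 0.167 TPM in any mouse. In bulk tissue, fewer cells of a type and less RNA per cell cannot be told apart.

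The genes lie partly in pairs on the genome, and all positions refer to GRCm38. Myh6 (chr14:54941921-54966927) and Myh7 (chr14:54970684-54994626) follow each other on the minus strand of chromosome 14 with 3756 bases between them. Tnni1 (chr1:135779434-135810989) and Tnnt2 (chr1:135836354-135852260) are 25364 bases apart on chromosome 1, and Tnni3 (chr7:4518305-4524229) lies 1922 bases from Tnnt1 (chr7:4504570-4516382), which encodes slow skeletal troponin T. Myh7b (chr2:155611212-155634307) and Actc1 (chr2:114047282-114053548) are both on chromosome 2, Acta1 (chr8:123891769-123894751) is on chromosome 8, and Myl4 (chr11:104550663-104595753) and Myl7 (chr11:5896637-5898782) are on chromosome 11. Mhrt, an antisense RNA gene of the Myh7 locus, was not analysed here. The libraries were made with a strand-marking kit.

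Each of the 3 heavy chain genes carries a microRNA in an intron, the group known as myomiRs, and these sequences are shown because the levels of their host genes are compared below. In the mature sequences from RefSeq (GRCm38.p6), capitals mark the seed, bases 2 to 8, which pairs with target transcripts. miR-208a-3p lies at chr14:54949072-54949093 in intron 29 of Myh6, miR-208b-3p at chr14:54975710-54975731 in intron 31 of Myh7, and miR-499-5p at chr2:155622893-155622913 in intron 19 of Myh7b.
miR-208a-3p: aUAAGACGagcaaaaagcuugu
miR-208b-3p: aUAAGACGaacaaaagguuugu
miR-499-5p: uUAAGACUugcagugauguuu
The miR-208a-3p and miR-208b-3p sequences share 19 of 22 bases and the whole seed, whereas the seed of miR-499-5p has 6 of 7 bases in common with theirs. The microRNAs themselves are not measured by these libraries.

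Acta1, Actc1 and Myl7 were the 3 of the 10 genes with a CArG box, the element bound by serum response factor, in the 250 bases before the RefSeq start site. Of all 32851 promoters of this length, 1.47% held one on either strand. The last 100 bases before the start are shown for these genes in the direction of transcription, with the CArG box, the MCAT element (CATTCC, the TEAD factor element, on either strand) and the TATA box (TATAAA, on either strand) in capitals.
Acta1 (chr8:123894776-123894875, minus strand): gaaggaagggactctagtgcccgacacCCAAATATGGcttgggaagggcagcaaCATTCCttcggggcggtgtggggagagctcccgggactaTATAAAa
Actc1 (chr2:114052876-114052975, minus strand): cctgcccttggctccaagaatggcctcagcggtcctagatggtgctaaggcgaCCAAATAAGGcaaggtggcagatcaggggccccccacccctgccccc
Myl7 (chr11:5898783-5898882, minus strand): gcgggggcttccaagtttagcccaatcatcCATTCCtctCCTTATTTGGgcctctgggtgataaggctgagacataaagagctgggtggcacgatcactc
An MCAT element was found before at least 1 start site of 5 of the 10 genes (Acta1, Myl7, Myh6, Myh7 and Tnnt2), against 12.6% of all promoters. The TATA letters were found before that of 1 gene (Acta1), against 12.4%. Myh7, Tnni1 and Tnnt2 each have 2 start sites, and start site 2 of Myh7 and of Tnnt2 held no MCAT element. A count of genes and a share of promoters are therefore unlike measures. In Acta1 the CArG box spans positions -73 to -64 and the MCAT element positions -46 to -41 from the start site, and in Actc1 the CArG box spans positions -47 to -38. A match of letters is a description of the window and was not tied to any change in level.

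Levels were compared between genes in TPM, which are corrected for transcript length. Tnnt2, which encodes cardiac troponin T, stood highest with a mean of 4870 TPM over the 10 mice, followed by Tnni3 with 3043 TPM and Actc1 with 2966 TPM. Tnnt2 was above Tnni3 in 10 of 10 mice, whereas Tnni3 was above Actc1 in only 6 of 10, so that these neighbours did not differ beyond their spread. Acta1 followed with a mean of 63.2 TPM and its range did not overlap that of Actc1. The mean of Myh6 was 29.3 TPM, and its range overlapped that of Acta1. Myh7b (8.44 TPM) and Myh7 (7.60 TPM) could not be ordered in TPM, with Myh7b higher in 5 of 10 mice. In estimated counts, before any correction for length, their means were 1917 and 4062. The mean effective transcript length was 2170 bases for Myh7b and 4868 bases for Myh7, and the order in TPM depends on it. The isoforms of the atrium and of slow skeletal muscle were lowest, with means of 1.26 TPM for Myl4, 0.134 TPM for Myl7 and 0.0543 TPM for Tnni1.

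**Figure D1:**
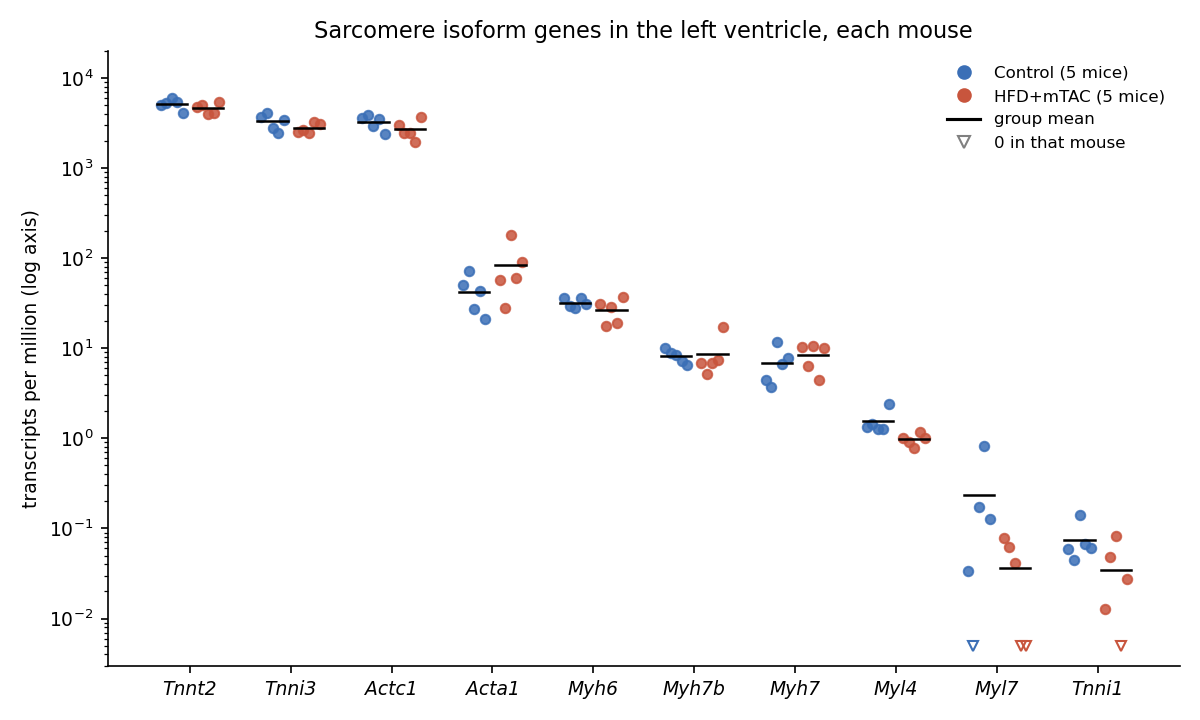
Level of each gene in each mouse in TPM on a log axis, with group means as black lines and open triangles for mice at 0. The thin filament genes Tnnt2, Tnni3 and Actc1 lie at 1928 TPM or more and the heavy chains between 3.75 and 37.1 TPM, and Myl7 and Tnni1 lie below 1 TPM in every mouse.

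The level of Myh6 was low beside the other adult isoforms. Myh6 encodes the heavy chain that is known to dominate the adult mouse ventricle, yet its TPM was 0.724 to 1.28% of that of Actc1, and the 3 heavy chains together were 0.394 to 0.867% of the TPM of Myl2, the ventricular regulatory light chain. Other sarcomere genes with long transcripts, named after their values were seen, had means of 130 TPM (Actn2), 98.9 TPM (Mybpc3) and 14.0 TPM (Ttn). The cause of the low heavy chain level was not tested. Ratios between heavy chains were taken within each mouse and are given with this limit.

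No isoform gene passed the test between the groups. In edgeR's quasi-likelihood test, 0 of the 9 tested members had an adjusted p under 0.05, as against 0.0602% of all 13299 genes, 8 in number. The adjusted p of the members lay between 0.416 and 0.862. At an unadjusted p under 0.05 there were 4 members (Acta1 higher, Actc1, Tnni1 and Tnni3 lower), beside 8.26% of all genes. DESeq2 called 0 of the members, beside 118 genes in all, and limma on log2(TPM + 1) called 0, beside 1 gene in all. The fitted change was below 0 in 6 of the 9 members, against 49.6% of all genes, and the median log2 fold change was -0.21 over the members and 0.0014 over all genes. No member had groups that did not overlap in CPM, counts scaled to a common library size, a property of 1.96% of all genes. In TPM, 1 tested member (Myl4) had groups that did not overlap, beside 0.692% of all genes.

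**Figure D2:**
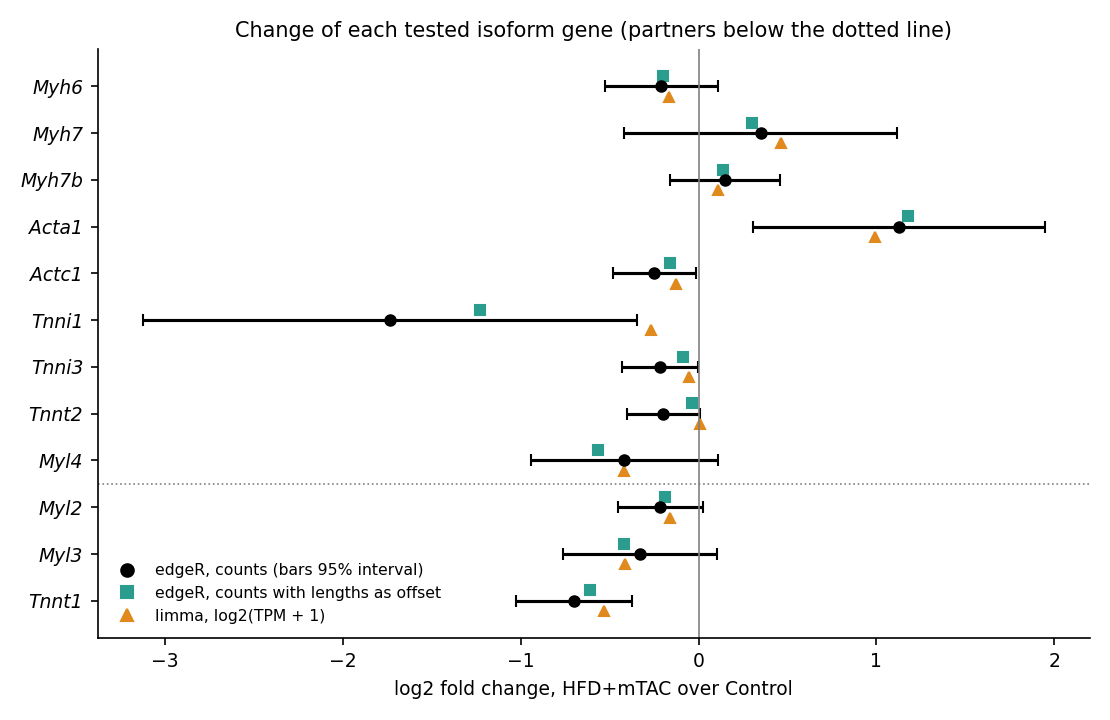
Log2 fold change of each tested gene, HFD+mTAC over control. Black points and bars give edgeR's estimate from counts with its 95% interval, green squares the estimate with transcript lengths as an offset, and orange triangles limma's estimate on log2(TPM + 1). Acta1 stands at 1.13 with an interval of 0.31 to 1.95, Tnnt1 below the dotted line at -0.70, and the squares and triangles of Tnni3 and Tnnt2 lie closer to 0 than their points.

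The beta heavy chain gene Myh7 varied widely among the control mice. Its level was 4.42, 3.75, 11.8, 6.64 and 7.76 TPM in the control mice, given here and below in the order of their numbers, and 10.4, 6.30, 10.5, 4.43 and 10.0 TPM in the HFD+mTAC mice. The highest mouse of all was the control mouse TT-585, the lowest were the control mice TT-584 and TT-583 and the HFD+mTAC mouse TT-591, and the groups overlapped over most of their range. In CPM the group means were 223 ± 126 (SD, n = 5) in control and 284 ± 85.6 (SD, n = 5) in HFD+mTAC mice. edgeR gave a fold change of 1.27 with a 95% interval of 0.748 to 2.17 (adjusted p = 0.862). It was 1.6 without TT-585, 1.11 without TT-584 and 0.960 without TT-583, TT-584 and TT-592. TT-583 and TT-584 also had the highest summed levels of fibroblast markers (155 and 146 TPM), of smooth muscle and pericyte markers (104 and 109 TPM), of endothelial markers (61.8 and 61.9 TPM) and of ventricular markers (11694 and 12370 TPM), and the part of this in the Myh7 result was not tested.

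Myh6, the alpha heavy chain gene, was 35.8, 29.6, 28.3, 35.8 and 30.8 TPM in the control mice and 30.7, 17.7, 28.5, 18.8 and 37.1 TPM in the HFD+mTAC mice. TT-589 and TT-591 lay below all control mice, TT-592 lay above them, and TT-588 and TT-590 lay within their range. Between the groups the fitted fold change was 0.865 with a 95% interval of 0.694 to 1.08 (adjusted p = 0.777 from edgeR).

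Myh7b encodes a slow-tonic heavy chain that the heart makes in small amounts. It was between 6.55 and 10.0 TPM in control mice, and in the HFD+mTAC mice it was 6.81, 5.14, 6.82, 7.37 and 17.2 TPM. TT-592 stood far above the others in TPM, where its effective transcript length was 1607 bases against 1997 to 2778 bases in the other mice. In CPM, which does not use the length, TT-592 was again highest at 161, with TT-591 at 138 and the rest between 95.9 and 135. The fold change from edgeR was 1.11 with a 95% interval of 0.895 to 1.37 (adjusted p = 0.849).

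The ratio of Myh7 to Myh6 gives the heavy chain balance within a mouse, in which library size cancels. It was 12.3, 12.7, 41.7, 18.6 and 25.2% in the control group and 34, 35.7, 36.8, 23.5 and 26.9% in HFD+mTAC mice. All HFD+mTAC mice were above 3 of the control mice, all were below TT-585, and none lay outside the range of the control mice. The ratio of geometric means was 1.56 (two-sided exact permutation test over all arrangements of the mice, p = 0.119, adjusted over the 7 ratios 0.278, smallest possible p 0.00794). Without TT-585 the difference on the log2 scale was 0.91 (exact permutation p = 0.0159), and without TT-583, TT-584 and TT-592 it was 0.25 (exact permutation p = 0.486), against 0.64 with all mice. The ratio of Myh7b to Myh6 was 20.2 to 30.0% in the control group and 22.2, 29.1, 23.9, 39.1 and 46.2% in HFD+mTAC mice (exact permutation p = 0.270, adjusted over the 7 ratios 0.315). TT-591 and TT-592 lay above all controls. The size of this ratio depends on the effective transcript lengths, with means of 2170 bases for Myh7b and 4294 bases for Myh6.

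As a share of the 3 heavy chains, Myh6 was 68.0% ± 5.62 (SD, n = 5) in control and 61.2% ± 2.31 (SD, n = 5) in HFD+mTAC mice. The difference was -6.78 percentage points (two-sided exact permutation test, p = 0.0397, adjusted over the 10 shares and sums compared 0.159). The unadjusted p was above 0.05 in 8 of the 10 comparisons that left out 1 mouse, and without TT-583, TT-584 and TT-592 the difference was -4.11 percentage points (exact permutation p = 0.343). Its values in control mice were 71.3, 70.1, 58.3, 72.0 and 68.3%, and in HFD+mTAC mice 64.0, 60.7, 62.2, 61.5 and 57.7%. Control mouse TT-585 had the lowest share of its group and lay among the HFD+mTAC mice, and the other 4 controls lay above all HFD+mTAC mice. The mean share of Myh7 was 14.5% in control and 19.3% in HFD+mTAC mice, and that of Myh7b 17.5% and 19.5%, with overlapping groups for both. In TPM the remainder was taken mostly by Myh7 in TT-588, TT-589 and TT-590, and by Myh7b more than by Myh7 in TT-591 and TT-592. In estimated counts Myh7 was above Myh7b in TT-591 (2304 against 2027) and in TT-592 (4259 against 2616). The effective transcript lengths were 4903 bases for Myh7 and 2596 bases for Myh7b in TT-591. In TT-592 they were 4490 and 1607 bases, so that the order depends on the correction for length.

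**Figure D3:**
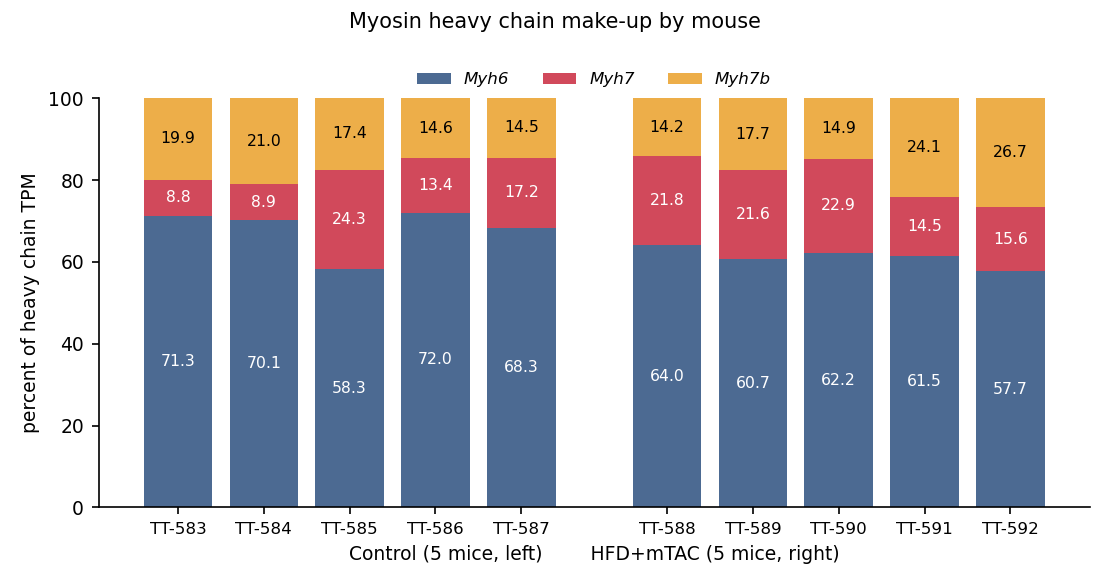
Percent of the summed TPM of Myh6, Myh7 and Myh7b taken by each gene, 1 bar per mouse, control mice on the left and HFD+mTAC mice on the right. Myh6 takes 57.7 to 72.0% in every mouse, Myh7 is widest in TT-585 at 24.3% and narrowest in TT-583 at 8.80%, and Myh7b is widest in TT-592 at 26.7%.

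Acta1, the skeletal alpha-actin gene, had the fitted change farthest above 0 among the members and did not pass the test. It was 50.8, 71.4, 26.9, 42.7 and 21.1 TPM in the control group and 57.4, 28.1, 183, 60.6 and 90.3 TPM in HFD+mTAC mice. TT-590 was highest by a wide margin, TT-592 was the only other mouse above all controls, and TT-589 lay near the lowest controls. In CPM the controls were 138 to 344 and the HFD+mTAC mice 366, 220, 1120, 407 and 422, so that 4 of 5 were above all controls. The fitted fold change was 2.18 with a 95% interval of 1.24 to 3.85 (adjusted p = 0.416 from edgeR), which placed Acta1 at rank 345 of the genes tested by p. Without TT-590 the fold change was 1.52 (adjusted p = 0.624 from edgeR). In TT-590 the 11 skeletal muscle markers summed to 1.6 TPM, with Tnni2 at 0.822 TPM, Mybpc2 at 0.631 TPM, Tnnt3 at 0.114 TPM and the other 8 at no more than 0.0132 TPM, among them Myh1 at 0.0129 TPM, its highest value of the 10 mice, and Mylpf, Myh2, Myh4, Actn3 and Mybpc1 at 0. Their part in the Acta1 result was not tested. The summed level of the 11 skeletal muscle markers was 1.01 to 18.9 TPM in control and 0.861 to 12.6 TPM in HFD+mTAC mice. Its highest values, in TT-587 and TT-592, came mostly from Mylpf at 16.9 and 9.95 TPM. Mylpf had no more than 19.1 estimated counts in any mouse.

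Actc1, the cardiac alpha-actin gene, was 3592, 3840, 2899, 3472 and 2403 TPM in the control group and 2991, 2440, 2450, 1928 and 3647 TPM in HFD+mTAC mice. The groups overlapped widely in TPM, with TT-591 below all controls. edgeR gave a fold change of 0.842 with a 95% interval of 0.715 to 0.991 (adjusted p = 0.567), and limma on log2(TPM + 1) one of 0.917. The Acta1 to Actc1 ratio was 1.41, 1.86, 0.928, 1.23 and 0.878% in the control group and 1.92, 1.15, 7.46, 3.14 and 2.48% in HFD+mTAC mice. Of the HFD+mTAC mice, 4 lay above all controls, TT-588 by a small margin and TT-590 by the widest, and TT-589 lay within the controls. The ratio of geometric means was 2.17 (two-sided exact permutation test, p = 0.0476, adjusted over the 7 ratios 0.167). The unadjusted p was above 0.05 in 8 of the 10 comparisons that left out 1 mouse, and without TT-590 the log2 difference was 0.75 (exact permutation p = 0.0714) against 1.12 with all mice.

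**Figure D4:**
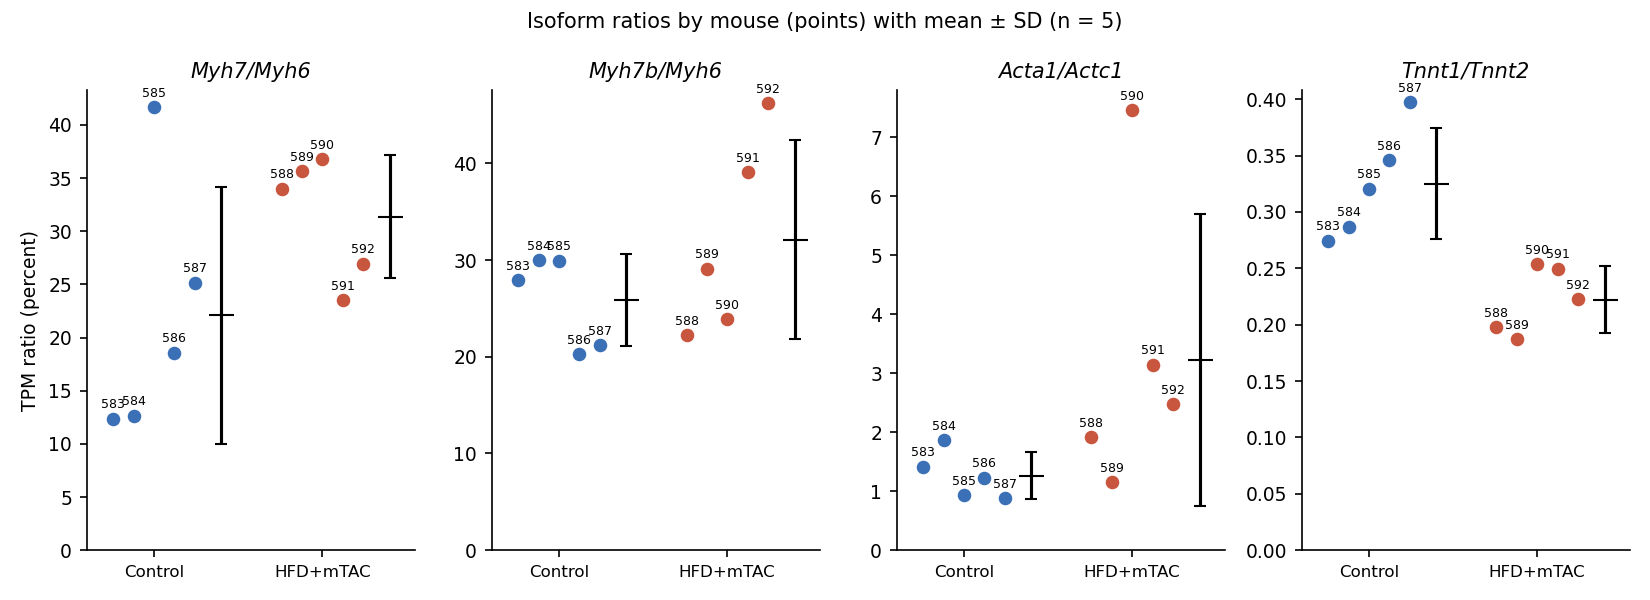
TPM ratio in percent for 4 isoform pairs, 1 point per mouse labelled by its number, with the mean and SD of each group (n = 5) beside the points. Control mouse TT-585 tops the Myh7/Myh6 panel at 41.7%, HFD+mTAC mouse TT-590 tops the Acta1/Actc1 panel at 7.46%, and in the Tnnt1/Tnnt2 panel all HFD+mTAC mice lie below all control mice.

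The fetal troponin I gene Tnni1 was close to absent in every mouse. Its estimated counts were 7, 4, 18, 6 and 5 in the control group and 1, 5, 2, 0 and 2 in HFD+mTAC mice, out of libraries of 34.2 M counts or more. The highest mouse was the control mouse TT-585, and the count of 0 in TT-591 allows a level of up to 0.0412 TPM (3 counts, counting error only). Between the groups the fitted fold change was 0.300 with a 95% interval of 0.115 to 0.786 (adjusted p = 0.471 from edgeR). At these counts, no more than 18 in any mouse, a difference between the groups was not detectable after adjustment. The fold change was 0.832 in limma on log2(TPM + 1), 0.509 in limma on log2(TPM + 0.1) and 0.198 without TT-589. Tnni1 was 0 to 0.00512% of the TPM of Tnni1 and Tnni3 together.

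Tnni3, the cardiac troponin I gene, was 3718, 4113, 2765, 2428 and 3393 TPM in the control group and 2535, 2673, 2473, 3272 and 3061 TPM in HFD+mTAC mice. Tnnt2 was 4939, 5261, 5912, 5376 and 4103 TPM in the control group and 4692, 5057, 3943, 4069 and 5346 TPM in HFD+mTAC mice. In both genes the groups overlapped, the lowest Tnni3 value of all was that of the control mouse TT-586, and TT-590 and TT-591 were just below the lowest control in Tnnt2. On the scale of counts the fitted fold changes were 0.861 for Tnni3 (95% interval 0.742 to 0.999, adjusted p = 0.600 from edgeR) and 0.872 for Tnnt2 (95% interval 0.756 to 1.01, adjusted p = 0.621 from edgeR). In limma on log2(TPM + 1), with TPM renormalized over the genes kept, these were 0.963 and 1.01. The direction of Tnnt2 turned there. In the deposited TPM the difference in mean log2 was -0.21 for Tnni3 and -0.15 for Tnnt2, the same direction as in counts. The summed ventricular markers, mostly Myl2, were also lower in every HFD+mTAC mouse than in every control mouse in TPM. In CPM the groups overlapped for Myl2. The part of these markers in the values of Actc1, Tnni3 and Tnnt2 was not tested.

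The counts and the TPM of these genes differ by their effective transcript length and by the total they are scaled to. The effective length reflects the transcript forms assigned in each mouse. The renormalized TPM used in limma leave out the mitochondrially encoded genes, which the deposited TPM include. The mean effective length of Tnnt2 was 409 ± 43.9 bases (SD, n = 5) in control and 370 ± 21.3 bases (SD, n = 5) in HFD+mTAC mice, and that of Tnni3 was 403 ± 44.3 and 376 ± 21.7 bases. In limma's test on log2 effective length, 0 of the 9 members were called, as were 0% of the 13191 genes with a varying length, and 0 members had an unadjusted p under 0.05, beside 4.28% of all genes. The lowest adjusted p of a member was 0.797.

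Tnnt1, the slow skeletal troponin T gene and neighbour of Tnni3, is no member but serves as the partner in the troponin T ratio. It was 13.6, 15.1, 19.0, 18.6 and 16.3 TPM in the control group and 9.27, 9.47, 10.0, 10.2 and 11.9 TPM in HFD+mTAC mice. Every HFD+mTAC mouse was below every control mouse, in TPM and in CPM. Of all genes, 0.692% had groups that did not overlap in TPM and 1.96% in CPM, in either direction. The fold change from edgeR was 0.616 with a 95% interval of 0.492 to 0.772 (adjusted p = 0.186), rank 34 of the genes tested. Tnnt1 did not pass in edgeR and passed in DESeq2 (adjusted p = 0.00588), which called 118 genes. Its adjusted p was 0.629 in limma on log2(TPM + 1) and 0.583 in edgeR with transcript lengths as an offset. As a ratio to Tnnt2 it was 0.275 to 0.397% in control and 0.187 to 0.254% in HFD+mTAC mice, with a ratio of geometric means of 0.685 (two-sided exact permutation test, p = 0.00794, the smallest this design allows, adjusted over the 7 ratios 0.0556).

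The atrial light chain gene Myl4 was 1.34, 1.43, 1.28, 1.26 and 2.38 TPM in the control group and 1.01, 0.910, 0.783, 1.17 and 1.02 TPM in HFD+mTAC mice. All HFD+mTAC mice were below all controls in TPM, TT-587 was the highest by a wide margin, and in CPM the groups overlapped (2.26 to 5.03 in control, 2.15 to 2.78 in HFD+mTAC mice). These values rest on 28 to 79 estimated counts per mouse. The fitted fold change was 0.749 with a 95% interval of 0.520 to 1.08 (adjusted p = 0.706 from edgeR). Relative to Myl3, the ventricular essential light chain gene, it was 0.142 to 0.351% in control and 0.133 to 0.314% in HFD+mTAC mice, and the ratio did not differ beyond the spread of the mice (exact permutation p = 0.865). Myl3 itself had a fitted fold change of 0.796 (95% interval 0.590 to 1.07, adjusted p = 0.720 from edgeR).

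Myl7, the atrial regulatory light chain gene, had estimated counts of 1, 0, 6, 21 and 3 in the control group and 2, 2, 1, 0 and 0 in HFD+mTAC mice. TT-586 alone exceeded 6 counts, with 0.830 TPM. The summed level of the 7 atrial markers was 126 TPM in this mouse, below that of TT-584 (137 TPM), TT-587 (144 TPM) and TT-590 (133 TPM). The 3 mice at 0 allow levels of up to 0.112 to 0.126 TPM (3 counts, counting error only). The ratio to Myl2 was at most 0.010% in control and at most 0.00113% in HFD+mTAC mice and did not differ detectably (exact permutation p = 0.206 on the linear ratio, 0.0397 without TT-584 and 0.0286 without TT-583, TT-584 and TT-592). Myl2, the ventricular counterpart, was 8293 to 9941 TPM in control and 6934 to 7411 TPM in HFD+mTAC mice, groups that did not overlap in TPM, whereas in CPM they did (17091 to 21037 against 13161 to 18168). Its fitted fold change was 0.861 (95% interval 0.730 to 1.02, adjusted p = 0.656 from edgeR).

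Other genes of the thin and thick filament were read from the same fit. Of 25 listed partners 24 were tested, 11 with a fitted change above and 13 below 0, with a median log2 fold change of -0.05 and 0 called by edgeR, whereas DESeq2 called Tnnt1. At an unadjusted p under 0.05 there were 3 of the 24, beside 8.26% of all genes, and these were lower in HFD+mTAC mice: Tnnt1, Tnnc1 (troponin C of slow and cardiac muscle, log2 fold change -0.26, adjusted p = 0.525 from edgeR) and Tpm1 (alpha-tropomyosin, named after its value was seen, log2 fold change -0.20, adjusted p = 0.531 from edgeR). The smallest p-values among those above 0 were those of Tcap, which caps titin at the Z-disc (log2 fold change 0.36, adjusted p = 0.71 from edgeR), and Mybpc2, a fast skeletal myosin-binding protein (log2 fold change 0.20, adjusted p = 0.794 from edgeR).

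Of 10 stress genes that accompany the fetal isoforms, 6 had a fitted change above and 4 below 0, with a median log2 fold change of 0.0046 and 0 called by edgeR. The natriuretic peptide genes, widely used markers of a stressed ventricle, had values below 0. Nppb had a log2 fold change of -0.56 (SE 0.22, unadjusted p = 0.0247, adjusted p = 0.504 from edgeR), with 486 ± 134 CPM (SD, n = 5) in control and 330 ± 93.2 CPM (SD, n = 5) in HFD+mTAC mice. Nppa had a log2 fold change of -0.54 (SE 0.28, adjusted p = 0.658 from edgeR), with 46.2 to 140 TPM over the 10 mice. TT-590, the mouse with the highest Acta1, had the highest Nppa of its group at 129 TPM, and TT-588, TT-589 and TT-591 had the lowest at 46.2 to 52.0 TPM. On the other side of 0 stood Xirp2, which encodes an actin-binding protein of the intercalated disc (log2 fold change 0.18, adjusted p = 0.790 from edgeR), and Fhl1, which encodes a LIM protein of the sarcomere (log2 fold change 0.03, adjusted p = 0.937 from edgeR).

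Of 18 regulators of these isoform genes, thyroid hormone receptors, TEAD, MEF2 and serum response factors among them, 17 were tested. The fitted change was above 0 in 3 and below 0 in 14, against 49.6% of all genes below 0. The median log2 fold change was -0.07, against 0.0014 over all genes. Of these regulators, 0 were called by edgeR and 0 reached an unadjusted p under 0.05, beside 8.26% of all genes. Dio2, the deiodinase that makes active thyroid hormone, had a log2 fold change of -0.71 (SE 0.33, adjusted p = 0.607 from edgeR), and of -0.13 without TT-583, TT-584 and TT-592. Pura, which encodes a single-stranded DNA-binding repressor, stood at -0.16 on the same scale (adjusted p = 0.676 from edgeR). Mef2d (0.19, adjusted p = 0.670 from edgeR) and Tead4 (0.33, adjusted p = 0.824 from edgeR) had the smallest p of those above 0.

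The genes whose log2(CPM + 0.01) followed Myh7 most closely over the 10 mice, among 10102 tested genes with a mean of at least 5 CPM, were Terf2ip (Pearson r = 0.958), Brms1l (r = 0.939) and Sgsm2 (r = 0.934). For Acta1 they were Upp1 (r = 0.931), Tmcc3 (r = 0.916) and Agpat2 (r = 0.900). These r are the highest of 10102 and describe shared ups and downs of 10 libraries that also share depth and composition. In CPM, Terf2ip was lowest in TT-583 and TT-584, like Myh7, and Upp1, Tmcc3 and Agpat2 were highest in TT-590, like Acta1. None of the 6 passed edgeR's test between the groups (adjusted p from 0.401 to 0.921).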

How the data were processed

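Left ventricular RNA of 5 control and 5 HFD+mTAC mice was analyzed, with groups from the sample labels. According to the study's methods and labels, the authors trimmed reads with fastp, quantified them with Salmon 1.6.0 on GENCODE transcripts of GRCm38 and summed them to genes with tximport. The labels also name a human build and single-end reads, whereas the methods give paired-end reads. Deposited values are expected counts of each gene (20.07% not whole, rounded here), TPM values and average effective transcript lengths in bases.

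The tests used protein-coding genes outside the mitochondrial genome that had 1 or more counts in 9 of 10 mice, 13299 of 29564 in all (12.7 to 21.1 M counts per mouse). The quasi-likelihood test of edgeR 4.0.16 in R 4.3.3 was applied to the counts after TMM scaling and without covariates (Benjamini-Hochberg adjustment, threshold 0.05), and log2 effective lengths, centred on the median gene of each mouse, with limma 3.58.1. Fold changes in the text are edgeR's, with 95% intervals from its standard error. The 7 isoform ratios were formed from TPM within each mouse and compared on the log2 scale, or as linear ratios where the numerator was 0 in some mice (Tnni1/Tnni3 and Myl7/Myl2), by two-sided exact permutation tests. The limits given for counts of 0 cover counting error only.

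Named genes were the 10 members, the partners Myl2, Myl3 and Tnnt1 of the ratios, from each of the 3 gene lists those called or otherwise the 2 with the smallest p in each direction, and for Myh7, Acta1 and Myl7 the 3 genes most correlated over the mice. None is named for Myl7, which was not tested. The members and lists were chosen with earlier results of these data known. Alternatives were DESeq2 1.42.0 and its size factors, upper-quartile normalization, limma on log2(TPM + 1) and log2(TPM + 0.1) after renormalization over the genes kept, the robust fit, an offset for transcript length, other filters, the inclusion of all biotypes, and for ratios counts, linear values or 1 TPM added, each mouse being left out in turn. The omission of TT-583, TT-584 and TT-592 and the test of the Myh6 share with each mouse left out were added after the data were seen. The fits were tested on simulated data. Positions come from GENCODE release M21 of GRCm38, in which 27812 symbols matched directly and 879 through an older symbol. Sequences come from RefSeq (GRCm38.p6), in which the promoters of all 10 members were found.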

Additional observations from a re-analysis of the deposited data

Results flagged for a closer look

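In 5 of 34 groups of 5 mice examined, 1 mouse lay far from the others by Dixon's criterion, where chance marks about 1 in 20 groups. The groups covered the levels of the members and the 7 isoform ratios. The number compared with the critical value of 0.71 is the gap to the nearest mouse divided by the range of the group. Myh7b was marked in HFD+mTAC mouse TT-592 (0.814), at 17.2 TPM against 5.14 to 7.37 TPM in the other 4. Myl4 was marked in control mouse TT-587 (0.849), at 2.38 TPM against 1.26 to 1.43 TPM. Tnni1 was marked in control mouse TT-585 (0.767), at 0.142 TPM against 0.0442 to 0.0669 TPM. Myl7 was marked in control mouse TT-586 (0.793), at 0.830 TPM against 0 to 0.172 TPM, and so was its ratio to Myl2 (0.806), which rests on the same 21 counts. Acta1 in TT-590 and Myh7 in TT-585, on which their group differences depend, were not marked by this criterion.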

How the results depend on the processing

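No member was called under any alternative, and 185 of the 188 member fold changes recomputed kept their direction. The exceptions were Tnnt2 in limma on log2(TPM + 1) and on log2(TPM + 0.1), 0.0091 in both, and Myh7 without TT-583, TT-584 and TT-592 (-0.059). The deposited TPM without renormalization were not among these alternatives. On that scale Myh7b alone of the tested members turned, with a difference in mean log2 TPM of -0.048 against 0.15 from edgeR. Of other named genes, Sgsm2 and Terf2ip turned in limma on log2(TPM + 1) (-0.015 and -0.033), on log2(TPM + 0.1) (-0.0096 and -0.042), with lengths as an offset (-0.10 and -0.082) and without the 3 libraries (-0.017 and -0.036), Brms1l without these libraries (-0.028), and Tead4 without TT-591 (-0.0016, of a range up to 0.44). Tnnt1 passed in DESeq2 and under no other alternative. The number of genes called in all was 118 in DESeq2, 1 in limma on either scale and with lengths as an offset, 2 without the 3 libraries, and 1 to 9 when 1 mouse was left out, while effective lengths gave 0 to 2.

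Among the ratios, Myh7/Myh6 differed by 0.47 to 0.91 (log2) and Acta1/Actc1 by 0.75 to 1.42 when 1 mouse was left out, and Acta1/Actc1 by 1.42 without the 3 libraries (exact permutation p = 0.0857). Myl4/Myl3 turned with 1 TPM added (0.22) and ranged from -0.22 to 0.12 with 1 mouse left out, being above 0 without TT-586 (0.03), TT-587 (0.11), TT-590 (0.12) or TT-592 (0.02). With 1 TPM added, Tnni1/Tnni3 (0.16) and Myl7/Myl2 (0.10) turned, since the added value exceeds the numerators. Tnni1/Tnni3 in counts differed by -3.6e-05 (exact permutation p = 0.0159), and Myl7/Myl2 by -3.9e-05 without the 3 libraries (exact permutation p = 0.0286) and by -2.95e-05 to -4.5e-06 with 1 mouse left out, the first without TT-584 (exact permutation p = 0.0397). The Myh6 share of the heavy chains differed by -9.21 to -5.77 percentage points with 1 mouse left out and by -4.11 without the 3 libraries. Tnnt1/Tnnt2 kept its direction and an unadjusted p under 0.05 under each of these. No paired analysis was possible because each mouse has its own number. Counts under 80 in Myl4, Myl7 and Tnni1 limit what can be seen there.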
